A study of Sus scrofa with 12 samples.

Results

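Pig skeletal muscle at 14 days of age was compared with muscle from the weeks on either side of it, to ask which genes were highest or lowest at day 14. The comparison set the 3 arrays of day 14 against the 3 arrays of day 7 and the 3 of day 21, pooled as 1 group of 6. These are 9 of the 12 arrays of a series on neonatal muscle, which also holds 3 arrays taken within a day of birth (day 0) that stay out of every test here. Each array carried labelled copies of total RNA from 1 muscle sample, described as a biological replicate of its age, on the Affymetrix pig array, which reads each transcript by groups of short probes called probe sets. The samples differ by age only as far as the labels go: no treatment or genotype is named, and the breed, sex and muscle are not given in the sources used here, nor whether each replicate was a separate animal. If replicates share an animal, the p-values measure only the spread between these samples.

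In the first weeks of life, piglet muscle grows quickly. Satellite cells, the stem cells of muscle, divide and fuse with fibres, fibres change the isoforms of myosin and troponin they make, and fast fibres gain glycolytic capacity while slow fibres keep an oxidative one. A transcript that was highest or lowest at day 14 would stand out from this steady change, since a gene that only climbs or only declines with age has its day 14 level between its neighbours.

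The values are the authors' MAS5 signals, a brightness per probe set scaled to the same trimmed mean on every array, and they were compared as log2. Of 23999 probe sets other than the array's controls, the 14399 with the highest mean over the 9 arrays were tested, and 7156 of these carry 1 gene symbol, for 5314 genes. Changes are mean log2 signal at day 14 minus mean log2 signal at days 7 and 21, with the standard error of limma's fit, so a change of 1 is 2-fold. The tissue label was borne out by the fibre genes CKM, TNNT3 and MYLPF, which ranked 11, 12 and 13 by mean signal over all probe sets. The median signal was 161.4 to 172.6 over the 9 arrays. The median correlation over the tested probe sets was 0.9447 between day 14 arrays and 0.9464 for a day 14 array with one of day 7 or 21. The third day 14 array had the lowest mean correlation with the other arrays, 0.9398. Several values below moved by over 1.5 times without that array.

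No probe set was called higher and none lower at day 14: 0 of 14399 (0%) in either direction had an adjusted p under 0.05 (limma, Benjamini-Hochberg), and the lowest adjusted p was 0.904. At an unadjusted p under 0.05 there were 690 probe sets (4.79%), 289 higher (2.01%) and 401 lower (2.78%), where a uniform spread of p-values gives 5%. Each bin of width 0.05 held 4.62% to 5.41% of the p-values. The day 14 arrays lay above all 6 others for 137 probe sets (0.951%) and below them for 166 (1.15%). Without the third day 14 array, 406 probe sets had an unadjusted p under 0.05. Without the first day 21 array, 1 probe set was called higher, which has no gene symbol. Its signals were 4459, 4799.9 and 3630.3 on the day 14 arrays, 1091, 1305 and 1281 on day 7 and 5200.3, 1065 and 1378 on day 21. That day 21 array alone lay above day 14; the change was 1.46 ± 0.41 with it and 1.81 ± 0.14 without it (adjusted p = 0.000867, limma). Day 14 muscle was thus not told apart from the pooled days 7 and 21 at any single gene with all 9 arrays.

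**Figure D1:**
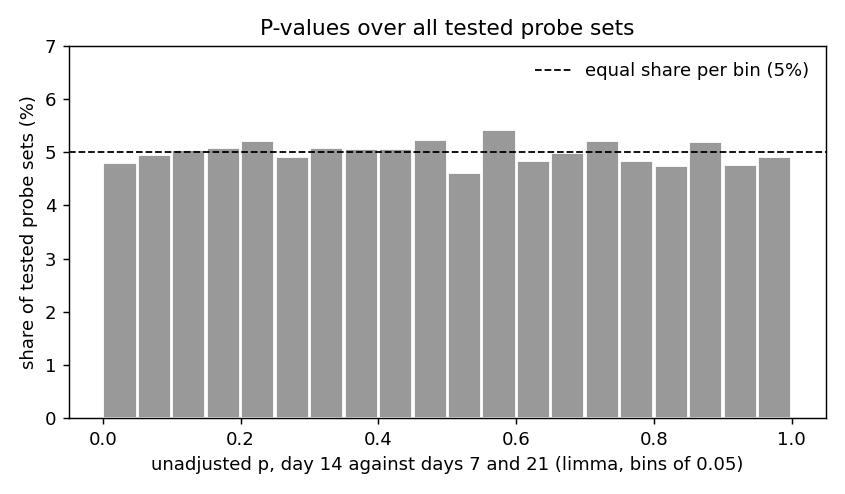
Share of the 14399 tested probe sets (vertical axis, %) in each 0.05-wide bin of the unadjusted p-value (horizontal axis) for day 14 against days 7 and 21 in limma's fit. The bars lie between 4.62% and 5.41%, close to the dashed line at 5%, and the bin of lowest p-values holds 4.79%.

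The size of difference that the arrays leave room for is set by the error. Because days 7 and 21 were pooled, that error also holds any difference between these 2 ages. For INSIG1, the standard error was 0.53 in the pooled fit. With a mean per age, that of its change against day 7 was 0.21. The median standard error of a change was 0.21, and the median half-width of its 95% interval was 0.46. For 4584 of 5314 genes (86.3%), the whole interval lay within a 2-fold difference in either direction. The fitted change itself reached 2-fold for 149 probe sets, 81 of them higher and 68 lower at day 14. The median change over all genes was -0.02.

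The main contractile genes did not pass the threshold. For MYH2, the fast myosin heavy chain of type IIa fibres, signals were 50462, 58335 and 48552 on the day 14 arrays, 51913, 49704 and 43922 on day 7 and 49381, 55234 and 62403 on day 21. The groups overlapped fully, the change was 0.01 ± 0.11, and its 95% interval ran from -0.22 to 0.25; the sign turned under other scalings and without single arrays. MYH7, the slow myosin heavy chain, had signals of 42301, 28713 and 35740.0 on the day 14 arrays, 29524, 29892 and 24561 on day 7 and 32930.2, 40622 and 40080.2 on day 21. The first day 14 array lay above those of day 21, the second below them and the third among them, and its change was 0.12 ± 0.17 with an interval of -0.24 to 0.48. Its day 14 mean lay between those of day 7 and day 21, as it did for MYH2. The 8 fast fibre isoforms tested had changes from -0.11 to 0.09 with a median of 0.00, and the 10 slow fibre isoforms had changes from -0.31 to 0.21 with a median of 0.12, which turned to -0.036 without the first day 14 array and reached 0.26 without the second. Neither list had a member with an unadjusted p under 0.05. Among the fast genes, TNNC2, the calcium-binding troponin subunit of fast fibres, had a change of 0.09 ± 0.11 and ATP2A1, the fast calcium pump, -0.11 ± 0.15, whose sign turned to 0.04 without the first day 14 array. ATP2A2, the calcium pump of slow and cardiac muscle, had a change of 0.20 ± 0.14, made up of 0.41 ± 0.12 against day 7 and -0.01 ± 0.12 against day 21.

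Isoforms of the fetal sarcomere did not share an order of ages. ACTC1, the cardiac actin that fetal skeletal muscle also makes, had signals of 9506, 15733 and 10121 on the day 14 arrays, 35155, 27871 and 23697 on day 7 and 15307, 11412 and 16540.0 on day 21. Both later ages lay below day 7 and overlapped each other: the change was -1.31 ± 0.21 against day 7 (adjusted p = 0.148) and -0.31 ± 0.21 against day 21, comparisons that share the day 14 arrays. TNNT2, the cardiac troponin T of immature fibres, had day 14 signals of 126, 251 and 343 and a wide interval of -2.06 to 0.71. Its change was -0.67 ± 0.64 with all arrays, -0.27 without the first day 14 array and -1.07 without the first day 21 array. MYL4, the embryonic myosin light chain, was lowest at day 7, with log2 deviations from its mean over the 9 arrays of -0.55, -0.26 and -0.37 there, 0.03, 0.05 and -0.20 at day 14 and 0.70, 0.13 and 0.48 at day 21. Of the 7 developmental isoforms tested, 6 had changes below 0, with a median of -0.23, while 2381 of all 5314 genes had changes above 0. The 1 with an unadjusted p under 0.05 was ACTC1, beside 184 of all genes (3.46%) in the lower direction.

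**Figure D2:**
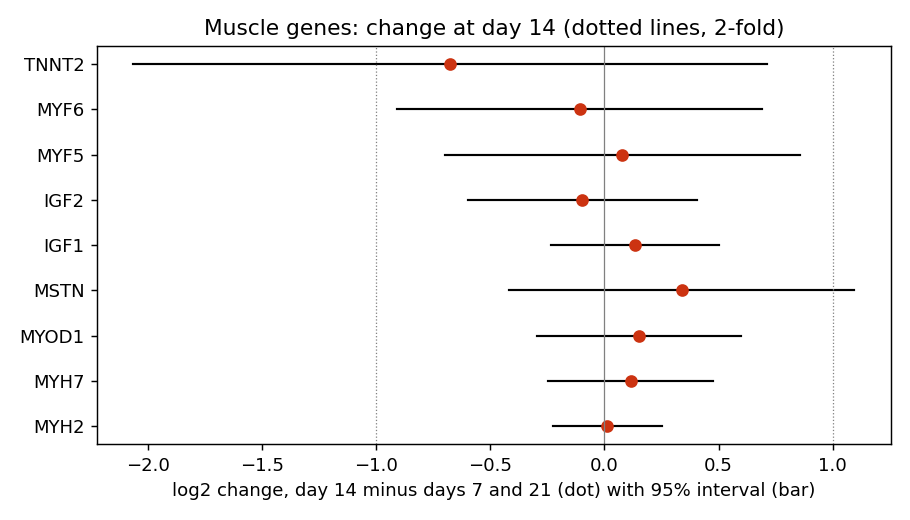
Fitted log2 change, day 14 minus days 7 and 21 (dot), with its 95% interval (bar) for 9 muscle genes, from 3 against 6 arrays; dotted lines mark a 2-fold difference. Every interval includes 0, the one for MYH2 is the narrowest at -0.22 to 0.25, and those for MSTN and TNNT2 reach past 2-fold.

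None of the growth regulators passed the threshold. Myostatin, MSTN, which restrains muscle growth, had signals of 508, 1069.6 and 1088 on the day 14 arrays, 373, 626 and 512 on day 7 and 1254, 665 and 856 on day 21. Its day 14 mean lay between the other ages, and the change of 0.34 ± 0.35 had an interval of -0.42 to 1.09 and turned to -0.01 without the first array of day 7 and the third of day 14. The insulin-like growth factors showed changes of 0.13 ± 0.17 for IGF1, the postnatal form, and -0.10 ± 0.23 for IGF2, the fetal one. IGF2 signals were 18336, 13436 and 12804 on the day 14 arrays, 24748, 18207 and 18760.0 on day 7 and 11369.7, 12454 and 12393 on day 21, so that each age lay mostly below the one before. Of the myogenic transcription factors, MYOD1 had a change of 0.15 ± 0.21, MYF5 of 0.08 ± 0.36 and MYF6 of -0.11 ± 0.37. For MYF5 the first day 14 array was at 299.5 and the third at 78.5, above and below every other array of the 9. The receptors ACVR2B, which binds myostatin and activins, and GHR, which binds growth hormone, had changes of 0.92 ± 0.37 and 0.46 ± 0.23 (adjusted p = 0.99 for both, limma). GHR was at 0.30 without the third day 14 array.

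The leading genes are those of lowest p whose 3 day 14 values lay outside all 6 others. In all, 40 of 5314 genes (0.753%) lay above and 80 (1.51%) below, and none had an adjusted p below 0.904. The first 10 in each direction are therefore a description of these arrays. CDKN3, a phosphatase of the cell cycle made in dividing cells, had signals of 322, 219 and 306 on the day 14 arrays, 741, 727 and 602 on day 7 and 541, 432 and 479.9 on day 21. All 3 day 14 values lay below the other 6, with day 7 highest, and the change was -1.05 ± 0.21 (adjusted p = 0.904, limma). The arrays at birth had still higher signals, 4226, 3697 and 1295, outside the test. TUBB, a beta-tubulin of the microtubules, had signals of 5154, 5022 and 4111 on the day 14 arrays, 7976, 7921 and 6805 on day 7 and 6411, 6481 and 7111 on day 21. The day 14 arrays were the lowest 3, with days 7 and 21 overlapping above them, and the change was -0.58 ± 0.12. SEC11C, a subunit of the signal peptidase, was at 734, 807 and 763 on the day 14 arrays, 1257, 1066 and 994 on day 7 and 1109.6, 1159 and 1194 on day 21. Its neighbours lay level with each other, with changes of -0.52 ± 0.14 against day 7 and -0.59 ± 0.14 against day 21.

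RBM3, an RNA-binding protein best known for its induction by cold, had signals of 2028, 1566 and 1115 on the day 14 arrays, 2894, 2446 and 2894 on day 7 and 2478, 2898 and 2052 on day 21. The highest day 14 array lay just under the lowest of day 21, and the third was far below the rest, with a change of -0.77 ± 0.18. Its signals at birth were 6699, 6101 and 7818. SNRPA, the A protein of the U1 splicing particle, had a change of -0.60 ± 0.16, with day 14 signals of 629, 458 and 428 and a lowest value of 702 elsewhere. PLIN3, a coat protein of lipid droplets, had the largest change of the 10, -1.40 ± 0.36, from low signals of 40.5, 46.3 and 114 on the day 14 arrays, 200.0, 163 and 157 on day 7 and 119.9, 209 and 119 on day 21. The third day 14 array lay just under the lowest neighbour. PTDSS1 (phosphatidylserine synthase), AKR1C1 (an aldo-keto reductase), ENOPH1 (an enzyme of methionine salvage) and NAP1L1 (a histone chaperone) had changes of -0.44 ± 0.12, -0.87 ± 0.23, -0.45 ± 0.13 and -0.38 ± 0.11. The other 3 tested probe sets of NAP1L1 gave -0.27, 0.02 and -0.10, and their groups overlapped.

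In the upward direction, STC1, the secreted hormone stanniocalcin, had signals of 396, 289 and 799.7 on the day 14 arrays, 187, 252 and 232 on day 7 and 216, 276 and 179.5 on day 21. The third day 14 array was far above the rest and the second only just above the highest neighbour, and the change was 1.03 ± 0.28 (adjusted p = 0.99, limma), or 0.61 without the third array. A second tested probe set of STC1 also kept its day 14 arrays above the others, at 166.8, 166.0 and 318.4, with a change of 1.02 ± 0.29. C4A, a component of complement, had signals of 245, 277 and 453 on the day 14 arrays, 82.0, 178 and 154 on day 7 and 171, 221 and 165 on day 21. The day 14 arrays were again the top 3, led by the third, and the change was 1.01 ± 0.31. CXCL2, a chemokine that attracts neutrophils, had signals of 181, 248 and 205 on the day 14 arrays, 122, 98.4 and 127 on day 7 and 144, 122 and 170.0 on day 21 and a change of 0.70 ± 0.24. TNFRSF1B, a receptor for tumour necrosis factor, was at 932, 698 and 922 on the day 14 arrays, 590.2, 609 and 596 on day 7 and 694, 653 and 639.5 on day 21, a change of 0.42 ± 0.14. The second day 14 array lay just above the nearest neighbour.

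PNPLA2, the lipase that starts triglyceride breakdown, had signals of 4426, 3861 and 4371 on the day 14 arrays, 2220.3, 3037 and 2776 on day 7 and 3714, 3799.6 and 2896 on day 21. Its day 14 values were the highest 3, with day 21 close behind, and the change was 0.48 ± 0.16; its second probe set gave 0.34 ± 0.31 with overlapping groups. LHPP (a phosphatase), PHLDA3 (a target of p53), RPL37 (a ribosomal protein), CDHR4 (a cadherin-related protein) and MCF2L had changes of 0.55 ± 0.18, 0.43 ± 0.15, 0.36 ± 0.13, 0.91 ± 0.31 and 0.60 ± 0.22. RPL37 was 1 of 56 ribosomal protein genes tested, whose median change was -0.03. Of the probe sets without a gene symbol, the 2 of lowest p on the lower side had changes of -0.96 ± 0.19 and -1.07 ± 0.23, and the 2 on the higher side 0.95 ± 0.20 and 1.11 ± 0.23.

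**Figure D3:**
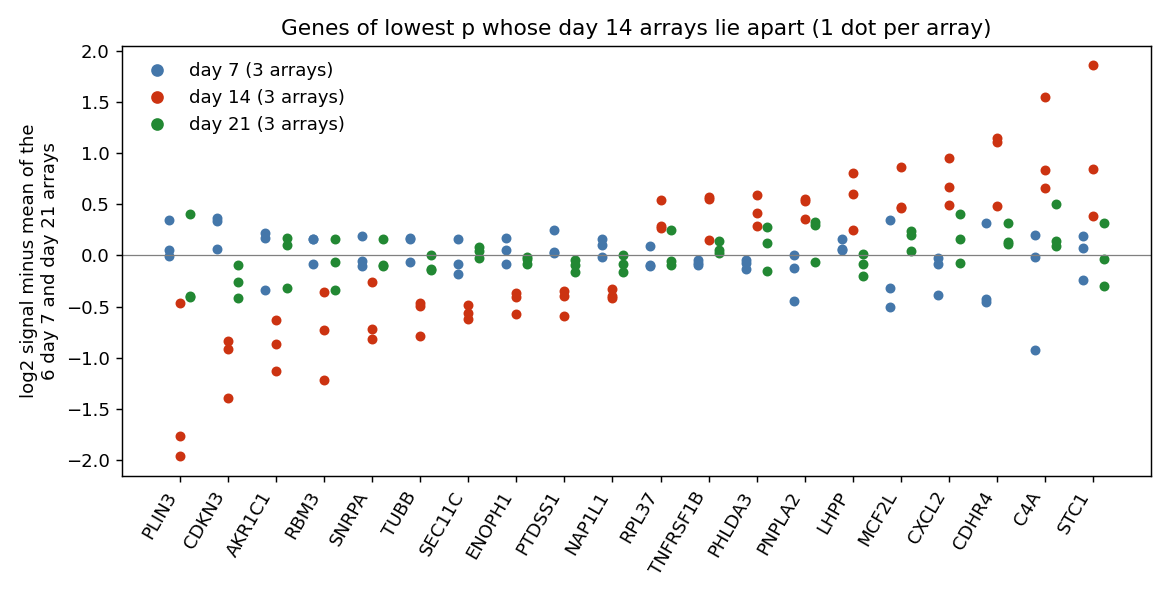
Log2 signal of each array minus the mean of the 6 day 7 and day 21 arrays (vertical axis) for the 20 named genes of lowest p whose day 14 arrays lay apart; each dot is 1 array, blue for day 7, red for day 14 and green for day 21. The genes were selected for this separation, and none passed the threshold; PLIN3 has the lowest day 14 values and STC1 the highest.

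Gene lists are described by their counts and medians, beside the same over all 5314 genes, of which 102 (1.92%) had an unadjusted p under 0.05 in the higher direction and 184 (3.46%) in the lower. Changes above 0 were found for 2381 of all 5314 genes. No member of any of the 37 lists was called. The interferon-induced genes, which cells switch on in response to interferon and which act against viruses, had the highest median. Of 42 listed, 26 had a probe set with their symbol and 23 were tested; all 23 had changes above 0, 12 of them (52.2%) at an unadjusted p under 0.05, with a median of 0.96, and none had groups that lay apart. In bulk tissue, fewer or more cells of a type and less or more RNA per cell cannot be told apart.

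ISG15, a ubiquitin-like protein induced by interferon, had signals of 2754, 727 and 5399 on the day 14 arrays, 2156, 129.9 and 189.8 on day 7 and 468, 460.2 and 449.8 on day 21. The first and the third day 14 arrays were high, and so was the first day 7 array, which lay above the second of day 14; the change was 2.41 ± 0.77 (adjusted p = 0.99, limma). MX2, an antiviral GTPase, had signals of 425, 315 and 629 on the day 14 arrays, 394, 201 and 130.3 on day 7 and 193, 192 and 169.6 on day 21, a change of 1.13 ± 0.32. The order of the arrays was like that of ISG15, with the first day 7 array between those of day 14. IFI44L was at 1943, 1294 and 3204 on the day 14 arrays, 1651, 501 and 441 on day 7 and 1070.5, 809 and 798 on day 21 and showed that order too, with a change of 1.33 ± 0.39. IRF9, the DNA-binding part of the factor that interferon receptors activate, had a change of 0.96 ± 0.32, and RSAD2, the antiviral enzyme viperin, had the largest of the list, 2.72.

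The list's level differed widely between arrays of the same age. Its mean deviation from each gene's mean over the 9 arrays was 0.68, 0.02 and 1.43 for the day 14 arrays, 0.76, -1.16 and -1.19 for day 7, and 0.12, -0.36 and -0.29 for day 21. Without the third day 14 array, the median was 0.59 and 2 of 23 genes had an unadjusted p under 0.05 in the higher direction, beside 43 of all 5314 genes (0.809%). Without the first day 7 array as well, a pair not planned beforehand, the median was 0.84. The number was then 10, beside 54 of all genes (1.02%). That day 7 array was the high one of its age for this list, so leaving it out raises the change. The signals of the interferon genes themselves were low: IFNG and IFNB1 did not reach the level needed for testing, and IFNA1 read 105 to 124 at day 14 and 20.2 to 163 on the other arrays. The summed signal of 19 macrophage markers, 16 of them tested, was 6619 to 11275 at day 14 against 5181 to 10003, highest on the third and lowest on the second day 14 array. CD163, a scavenger receptor of macrophages, read 221 to 649 against 161 to 499.7 on the other arrays. CD3E, a T cell marker, read 14.5 to 80.2 against 5.2 to 84.5. The part of these cells in the interferon values was not tested.

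The MHC and macrophage lists were nearer to the rest of the genes than the interferon list was. All 8 MHC class I genes, which display peptides to T cells, had changes above 0, with a median of 0.30 and none at an unadjusted p under 0.05. That median was 0.04 without the third day 14 array. Among them TAPBP, the chaperone that loads the peptide, had a change of 0.34 ± 0.21, and 0.061 without the first day 14 array. TAP1, the peptide transporter, had 0.57 ± 0.43, with 0.033 without the third day 14 array and 0.96 without the second. TAP1, which the interferon list holds too, had signals of 501, 358 and 1287 on the day 14 arrays, 591, 251 and 233 on day 7 and 775, 432 and 432 on day 21, with the third day 14 array far above the rest. The 8 MHC class II genes had a median of 0.19; SLA-DRA, a class II chain, had a change of 0.52 ± 0.29, with day 7 lowest and day 14 close to day 21, and 0.27 without the third day 14 array. The 16 macrophage markers had a median of 0.19, with CTSS, a lysosomal protease, at 0.60 ± 0.26 and GPNMB, a membrane glycoprotein, at -0.68 ± 0.38. Without the third day 14 array the class II median was 0.06 and the macrophage median 0.02.

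The complement and coagulation list had 16 tested genes, of which 14 had changes above 0 and 6 (37.5%) an unadjusted p under 0.05 in the higher direction, with a median of 0.43. C4A and CD46, a regulator on cell surfaces, were the 2 whose groups lay apart. Both lay above, as did 40 of all 5314 genes (0.753%). C1S, a protease of the classical pathway, had signals of 2930.3, 2702 and 4283 on the day 14 arrays, 1839, 1299.7 and 1548 on day 7 and 2449, 2962 and 1462 on day 21. Day 7 was lowest, while 1 day 21 array reached into the day 14 range, and the change was 0.81 ± 0.25. C1R, its partner protease, had a change of 0.77 ± 0.30 (0.50 without the third day 14 array), and CFD, a protease of the alternative pathway that fat cells secrete and that the fat gene list also holds, 0.45 ± 0.19. Without the third day 14 array no member had an unadjusted p under 0.05, and the median was 0.35.

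The cell cycle list had the lowest median, -0.62. Of 32 genes tested, 31 had changes below 0 and 14 (43.8%) an unadjusted p under 0.05 in the lower direction. CDKN3, RRM2 and CDK2 were the 3 whose groups lay apart. All 3 lay below, as did 80 of all 5314 genes (1.51%). H2AFZ, a histone variant, had signals of 3524, 3889.9 and 2667 on the day 14 arrays, 6684, 5594 and 6207 on day 7 and 5786, 3525 and 4419 on day 21. Day 7 was highest and the lowest day 21 array lay among the day 14 ones, with a change of -0.66 ± 0.20 (adjusted p = 0.99, limma). STMN1, which takes apart microtubules, had signals of 3337, 3501 and 2233 on the day 14 arrays, 7024, 5609 and 5869 on day 7 and 4534, 3104 and 4392 on day 21 and the same order, with changes of -1.05 ± 0.20 against day 7 and -0.41 ± 0.20 against day 21. TUBA1B, an alpha-tubulin, had a change of -0.53 ± 0.18. PCNA, the clamp of DNA replication, and TOP2A, the topoisomerase of dividing cells, had changes of -0.64 and -0.97. CDKN1B, an inhibitor of the cycle, was the 1 gene of the list above 0, at 0.16.

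Here too the arrays of day 14 differed among themselves. The list's mean deviation was -0.09, -0.24 and -0.83 on the day 14 arrays, 0.60, 0.34 and 0.40 on day 7, and 0.19, -0.24 and -0.14 on day 21. The first and second day 14 arrays thus lay close to the second and the third of day 21. Without the third day 14 array the median was -0.38 and 2 of 32 genes had an unadjusted p under 0.05 in the lower direction, beside 98 of all 5314 genes (1.84%). Without the first day 7 array as well, a pair not planned beforehand, they were -0.25 and 1, beside 75 of all genes (1.41%). TUBA1B was at -0.29 without the third day 14 array. Day 7 was the high age, and the third day 14 array lay far below all those of day 21.

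**Figure D4:**
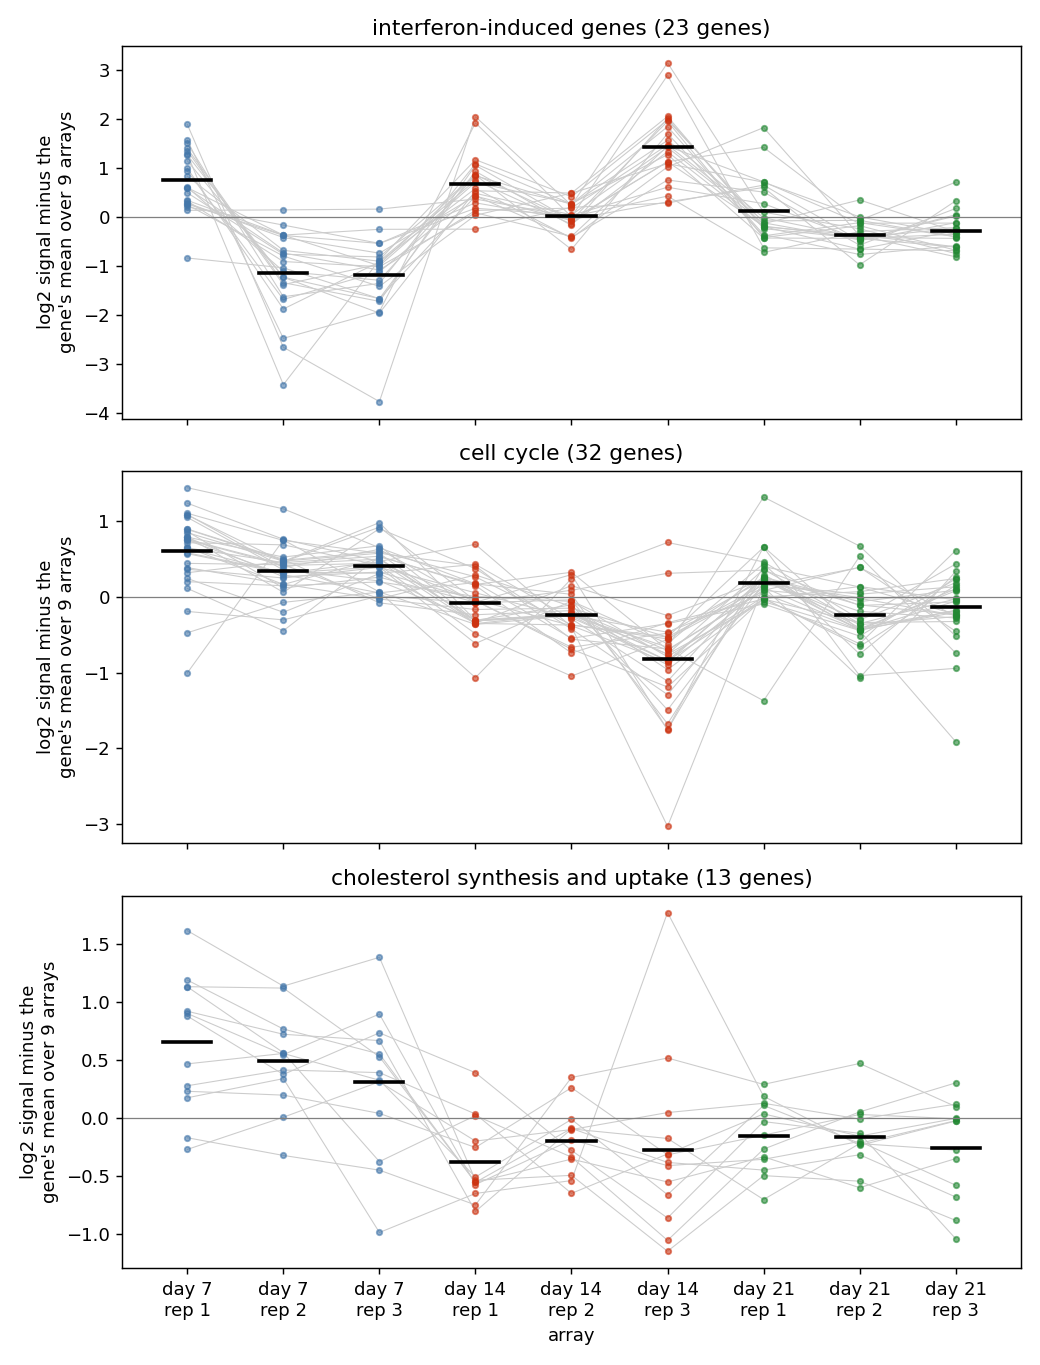
Log2 signal of each list member minus that gene's mean over the 9 arrays (vertical axis) on each array (horizontal axis), for 23 interferon-induced, 32 cell cycle and 13 cholesterol genes; dots are genes joined by grey lines, and black bars are the mean over the list. The interferon bars are high on the first day 7 array (0.76) and the third day 14 array (1.43), the cell cycle bar is lowest on the third day 14 array (-0.83), and the cholesterol bars are above 0 on the 3 day 7 arrays only.

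Genes of cholesterol synthesis and uptake were on average highest at day 7, with day 14 close to day 21. Of 13 tested, 11 had changes below 0, 1 at an unadjusted p under 0.05, with a median of -0.52. INSIG1, which holds the cholesterol sensor in the endoplasmic reticulum, had signals of 647, 666 and 423 on the day 14 arrays, 2874, 2064 and 2451 on day 7 and 665, 644 and 509 on day 21. Day 7 was far above both later ages, which overlapped: the change was -2.10 ± 0.21 against day 7 (adjusted p = 0.00997, limma) and -0.09 ± 0.21 against day 21. FDPS, a synthase of the isoprenoid steps, had signals of 872, 1002 and 874 on the day 14 arrays, 2806, 2783 and 1846 on day 7 and 1016, 845 and 1005 on day 21, again high at day 7 only, with changes of -1.41 ± 0.18 (adjusted p = 0.0384) and -0.06 ± 0.18. With a probe set that has no symbol, these were the 3 probe sets of 14399 (0.0208%) called in day 14 against day 7, all lower at day 14, and none was called against day 21. At an unadjusted p under 0.05 there were 1216 probe sets (8.45%) against day 7 and 601 (4.17%) against day 21. The 3 calls depend on the fit: leaving out the second or the third day 7 array or any day 14 array left 1, and a fit without a variance trend left 0. The call left was FDPS without the third day 7 array, where INSIG1 was not called, and INSIG1 in the others. INSIG1 was also not called without the first day 7 and the third day 14 array together (adjusted p = 0.0699, limma). FDPS was not called without the first or the second day 7 array, nor without any single day 14 or day 21 array (adjusted p of 0.0559 to 0.093 for day 21). With all 12 arrays in the fit INSIG1 (adjusted p = 0.655) and FDPS (adjusted p = 0.588) were both not called, and the probe set without a symbol was. Against day 21, 1 probe set was called without the first day 21 array. SC5D, a late enzyme of the pathway, had a change of -0.60 ± 0.20, SREBF2, its main activator, -0.69 ± 0.32 (-0.39 without the third day 14 array), and NSDHL, another late enzyme, -0.47 ± 0.23.

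Fat genes lay on both sides of 0. Of 16 adipocyte genes tested, 4 (25%) had an unadjusted p under 0.05 in the higher direction, PNPLA2, DGAT2, LPL and CFD, and 1 (6.25%) in the lower, DGAT1. The changes of the list ran from -1.16 to 1.16, with a median of 0.15. DGAT2, which makes triglycerides, had a change of 1.16 ± 0.45, with day 14 signals of 450.1, 325 and 599; the third day 7 array, at 499.5, lay among them. LPL, the lipase that frees fatty acids from blood lipids, had signals of 6674, 3170.1 and 6698 on the day 14 arrays, 3022, 4015 and 4474 on day 7 and 3129, 3602 and 2789.7 on day 21. The first and the third day 14 arrays were high and the second was not, for a change of 0.59 ± 0.23, or 0.95 without the second. The summed signal of 23 adipocyte genes was 28211 to 35299.7 at day 14 against 23308 to 30523 on the others, highest on the third array, while of the defining genes of fat cells ADIPOQ and LEP did not reach the level for testing. FABP4, the fatty acid binding protein of fat cells, did, and read 3192 to 6762 at day 14 against 2156 to 5285 on the others. Without the third array 1 of the 16 had an unadjusted p under 0.05 in the higher direction, beside 43 of all 5314 genes (0.809%). The part of fat cells in these values was not tested.

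Of the 20 glycolysis and glycogen genes, ALDOC, the brain-type aldolase, was the 1 with an unadjusted p under 0.05, and the median of the list was 0.01. ALDOC had signals of 372, 288 and 613 on the day 14 arrays, 175, 221 and 302 on day 7 and 221, 264 and 171 on day 21. The second day 14 array lay under the highest of day 7, and the change was 0.87 ± 0.26, or 0.57 without the third day 14 array. PC, pyruvate carboxylase, had a change of 0.43 ± 0.21 among 24 citric acid cycle genes with a median of 0.00. The 55 oxidative phosphorylation genes lay between -0.39 and 0.37, with a median of -0.05, and none had an unadjusted p under 0.05; NDUFS5, a subunit of complex I, was at -0.16 ± 0.10. The 27 fatty acid oxidation genes had a median of 0.12. CKMT1A, a mitochondrial creatine kinase, had a change of -1.17 ± 0.43 from signals near the testing limit of 93.6.

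Stress and hormone lists held some wide single changes. PHGDH, the first enzyme of serine synthesis, had signals of 273, 85.6 and 96.5 on the day 14 arrays, 781, 428 and 356 on day 7 and 279, 341 and 179 on day 21. The second and the third day 14 arrays were the lowest of the 9, and the first lay among those of day 21, for a change of -1.44 ± 0.44. ASNS, asparagine synthetase, and MTHFD2, a mitochondrial folate enzyme, had changes of -0.77 ± 0.36 and -0.41 ± 0.17. MTHFD2 was at -0.27 without the third day 14 array. CEBPB, a transcription factor, had 0.77 ± 0.23, and the median of these 14 stress genes was 0.10. Of 14 glucocorticoid and clock genes, 13 had changes above 0, with a median of 0.37 and 1 at an unadjusted p under 0.05. That median was 0.18 without the third day 14 array, with no member at an unadjusted p under 0.05. Without the first day 7 array as well, a pair not planned beforehand, the median was 0.11. GLUL, glutamine synthetase, had a change of 0.48 ± 0.21 (0.31 without the third day 14 array) and KLF9, a transcription factor that glucocorticoids induce, 0.48 ± 0.22. FOS, the immediate early factor, had signals of 14225, 11556 and 13212 on the day 14 arrays, 4822, 12929 and 6436 on day 7 and 828, 9151 and 5831 on day 21. The second day 7 array lay among the day 14 values and the first day 21 array far below all others, for a change of 1.34 ± 0.64, or 0.82 without that day 21 array; ZFP36, which speeds the decay of cytokine mRNA, had 0.38 ± 0.16.

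Single members of the remaining lists had similar sizes, all at an adjusted p of 0.99 (limma). NQO1, a quinone reductase of the antioxidant response, had a change of -0.91 ± 0.33, with signals of 1735, 1502 and 806 on the day 14 arrays, 3760.0, 1753 and 1538 on day 7 and 3670.4, 2883 and 1828 on day 21. The third day 14 array was lowest, the first lay within the range of day 7, and the change was -0.58 without the third. FOXO3, a factor that turns on atrophy genes, had a change of 0.97 ± 0.51, made up of 0.27 ± 0.45 against day 7 and 1.67 ± 0.45 against day 21. Its day 21 signals were dim, at 32.4, 108.7 and 54, beside a testing limit of 93.6 for the mean. MAP1LC3B, an autophagosome protein, had 0.30 ± 0.13, AKT1, a kinase of insulin signalling, -0.33 ± 0.14 (-0.20 without the third day 14 array), and CALM3, a calmodulin gene, -0.41 ± 0.14. CALR, a chaperone of the endoplasmic reticulum, had 0.35 ± 0.15 (0.23 without the third day 14 array). EGLN1, the oxygen-sensing hydroxylase, had 0.44 ± 0.16, and COL15A1, a collagen of basement membranes, -0.40 ± 0.16. Of the vessel genes, TEK, the angiopoietin receptor, had 0.48 ± 0.21 (0.21 without the third day 14 array) and TAGLN, a smooth muscle protein, 0.59 ± 0.22; the median of the 17 endothelial and pericyte genes was 0.00. TFRC, the transferrin receptor, had day 14 signals of 2781, 3218 and 2915, above all 6 others, and a change of 0.40 ± 0.20, most of it against day 21. The markers of blood and nerve cells overlapped between the groups: summed signals at day 14 were 6099 to 7253.5 for 8 erythroid genes, against 5890.1 to 7062, and 2078 to 3627 for 6 nerve and junction genes, against 1844 to 3456. The haemoglobin gene HBB had a change of -0.22 ± 0.14 (-0.14 without the third day 14 array). CXCR4, a chemokine receptor also found on satellite cells, had -0.52 ± 0.23. The 37 proteasome genes had a median of -0.02 and the 35 chaperones -0.03, and the 27 ribosome assembly genes had -0.11.

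**Figure D5:**
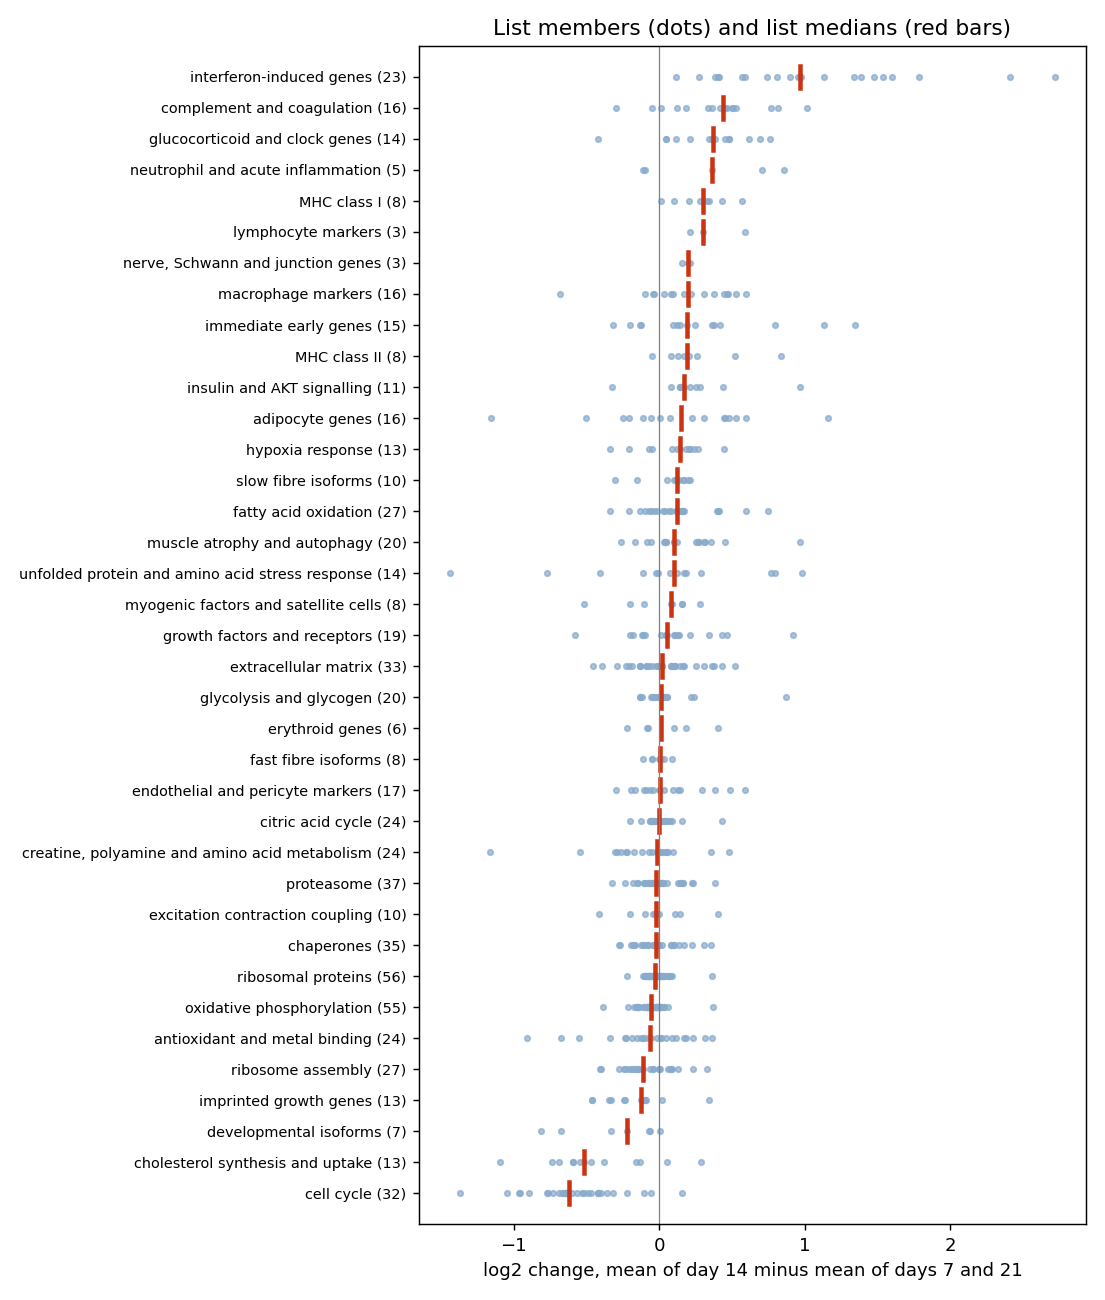
Change of each tested list member (dots) and the list median (red bars) on the log2 scale, day 14 minus days 7 and 21 (horizontal axis), with the number of genes tested in brackets after each list's name. The medians run from -0.62 for the cell cycle to 0.96 for the interferon-induced genes, and no dot passed the threshold.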

How the data were processed

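Signals of 9 pig arrays (day 7, 14 and 21, 3 each) were compared. The deposited values are the authors' array intensity signals, which the submitters' processing notes say MAS5 made (version not given in the sources used here), and have nearly the same trimmed mean on all arrays (500.1). MAS5 subtracts mismatch signal, so dim values are noisy. Signals were taken to log2, 124 control probe sets and the lowest 40% by mean over the 9 arrays were left out, and limma 3.58.1 in R 4.3.3 (eBayes with a variance trend, Benjamini-Hochberg over 14399 probe sets, threshold 0.05) fitted day 14 against days 7 and 21 pooled; a second fit had a mean per age. The scripts were tested on simulated data. A gene is its brightest tested probe set, named from the platform annotation: 10069 probe sets have 1 symbol, 198 several and 13732 none. The text names genes with the lowest p whose groups lay apart (10 each way), up to 4 members per list in order of p, and 9 muscle genes. Members and lists were chosen with earlier results of these data known. For 10 array measures, such as control ratios, exact two-sided permutation tests gave p of at least 0.286 (adjusted 0.988; smallest possible 0.0119). Arrays with one replicate number did not deviate together (correlations -0.188 to 0.118).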

Additional observations from a re-analysis of the deposited data

Results flagged for a closer look

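Of 90 genes checked over the pooled day 7 and day 21 arrays, 3 had 1 array far from the other 5, where chance gives about 1 in 20 groups. For C4A, the first day 7 array read 82.0 and the next lowest 153.9, a gap of 0.636 of the group's range on the log2 scale. For FOS, the first day 21 array read 828 against 4822 for the next, a ratio of 0.641. For MTHFD2, the third day 21 array read 374.5 against 489, a ratio of 0.648.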

How the results depend on the processing

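In 21 alternatives to the fit, the count of probe sets called lower stayed at 0 and the count called higher stayed at 0, except that leaving out single arrays gave 0 to 1 higher. These include the fit without the first array of day 7 and the third of day 14 together, which was not planned beforehand. The replicate number as a block gave 0 calls, and 2 in day 14 against day 7, where FDPS was not called (adjusted p = 0.148, limma). The unadjusted counts are limited by single arrays: 406 to 987 probe sets had an unadjusted p under 0.05 when 1 array was left out. Chosen after seeing the data, the same alternatives run on day 14 against day 7 gave 1 to 4 calls without single arrays, 0 without the first array of day 7 and the third of day 14 together, 0 without a variance trend and 1 with all 12 arrays in the fit. Against day 21 they gave 0 to 1 without single arrays. Of 90 genes, 83 kept their direction in every alternative and none was called in any. MYH2 turned to -0.00423 under quantile normalization, -0.002523 under median centring and -0.009538 when scaled on the hybridization controls, and ran from -0.065 to 0.068 with arrays left out. Leaving out single arrays moved MYH7 from -0.017 to 0.26, IGF2 from -0.26 to 0.04, MYF5 from -0.39 to 0.58 and ATP2A1 from -0.27 to 0.043. Without the first array of day 7 and the third of day 14 together, MSTN was at -0.01384 and IGF2 at 0.1337; over all settings with arrays left out, MSTN reached 0.70 and MYF6 ran from -0.37 to 0.12. The cause was not tested. Probe sets with a mean signal below 93.6 over the 9 arrays were not tested, and 3 day 14 arrays limit the precision.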
